A study of Mus musculus with 3 samples.

Results

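Imprinted genes were examined for the testis-specific histone variants TH2B and TH2A that mature sperm retains. The 50 genes were chosen by name as genes of known imprinted domains of the mouse, and all 50 were found among the 55536 annotated genes. No measured value was used as a rule, but earlier results of these data were known when the genes were chosen. The paper had already listed Kcnq1ot1 and Dlk1 among genes with TH2B. Of them 42 are protein-coding and 8 are non-coding, and they lie in 20 domains on 10 chromosomes. Mature sperm came from the cauda epididymis of BALB/c-129-E mice aged 8 to 12 weeks, and the labels name no treatment or mutation. Mononucleosomal DNA was immunoprecipitated with an antibody to TH2B or to TH2A, 2 reactions were pooled for each variant, and DNA taken before immunoprecipitation served as Input. Each variant has therefore 1 library, and the labels give about 30000000 unique read pairs each to TH2B and Input, with 34000000 to TH2A. The deposited lists hold 1179 TH2B peaks and 210 TH2A peaks as positions in mm10 only, so a gene either has a peak or has none, no peak can be called stronger than another, the depth behind a peak is unknown and no p-value is given. Purity of the sperm could not be checked from positions.

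An imprinted gene is expressed from only the maternal or only the paternal copy. The copies are told apart by DNA methylation laid down in the egg or in the sperm at short CpG-rich control regions, the germline differentially methylated regions. In sperm the regions methylated in the egg are free of methylation, whereas the few that are methylated in the sperm, such as the one upstream of H19, carry it. Most sperm DNA is packed by protamines, and the histones that remain are often found at CpG-rich promoters, which makes the place of a peak against a control region of interest.

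TH2B peaks lay at 7 of the 50 imprinted genes, counting a peak in the gene body or within 5 kb of it. These were Kcnq1ot1, Kcnq1, Tssc4, Cd81, Zrsr1, Commd1 and Dlk1. The share was 14% (95% Wilson interval 6.95 to 26.2%), against 4.23% of all protein-coding genes (931 of 22028, 3.97 to 4.5%). Only 4 separate peaks stood behind the 7 genes, since 6 of the genes shared a peak with a neighbour, and they fell in 3 of the 20 domains. Of the 4 peaks 3 touched 2 members each, where the pair of Kcnq1ot1 and Kcnq1 includes a non-coding gene. Of the 768 TH2B peaks at protein-coding genes 25.1% touched 2 or more such genes, a count that leaves non-coding genes out. Counted as peaks, the 4 were 0.339% of the TH2B list. Without the 9 members of the Kcnq1 domain the share was 3 of 41 (7.32%, 2.52 to 19.4%), an interval that holds the 4.23% of protein-coding genes. The share was 8% (4 of 50, 3.15 to 18.8%) under each of 2 other rules, against 2.87% of protein-coding genes when each peak went to the gene with the nearest start and 2.2% when only peaks of at least the median width were kept. In both cases the interval of the members lay above the protein-coding share, under the nearest-start rule only just (3.15 against 2.87%). Under the width rule the 4 genes were Kcnq1ot1, Kcnq1, Cd81 and Tssc4. They all belong to the Kcnq1 domain and rest on 2 peaks. TH2A peaks lay at none of the 50 genes, which allows a share of up to 6%, against 0.218% of protein-coding genes (48 of 22028). All intervals and limits cover counting error only and take genes as independent, which neighbours that share a peak are not.

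The sequence of the peak at the start of Kcnq1ot1, a control region of this kind, is shown first, because it is the only one of the 4 peaks that lies outside annotated untranslated regions. The central 300 bases of the peak (GRCm38, chr7:143295979-143296278, minus strand, the strand on which Kcnq1ot1 is transcribed) were read from the reference genome, and capitals mark each CpG, the dinucleotide that carries the imprint.
Kcnq1ot1 peak: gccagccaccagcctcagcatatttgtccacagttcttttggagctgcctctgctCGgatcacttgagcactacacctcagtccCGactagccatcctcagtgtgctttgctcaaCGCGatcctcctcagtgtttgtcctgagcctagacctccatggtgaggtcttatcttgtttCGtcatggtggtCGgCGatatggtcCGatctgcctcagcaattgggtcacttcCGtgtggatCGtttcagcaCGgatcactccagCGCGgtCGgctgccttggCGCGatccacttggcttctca
These 300 bases hold 16 CpG. For Zrsr1 and Dlk1 the 250 bases before the start are given from RefSeq promoter sequences (GRCm38, chr11:22971755-22972004 and chr12:109452573-109452822, both on the plus strand), to show the DNA just before the exon that carries the peak, again with CpG in capitals.
Zrsr1 upstream: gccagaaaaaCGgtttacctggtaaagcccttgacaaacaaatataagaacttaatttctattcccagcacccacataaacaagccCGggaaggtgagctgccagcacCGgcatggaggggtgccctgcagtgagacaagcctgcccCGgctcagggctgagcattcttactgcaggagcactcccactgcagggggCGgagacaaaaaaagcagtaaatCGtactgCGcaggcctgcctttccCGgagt
Dlk1 upstream: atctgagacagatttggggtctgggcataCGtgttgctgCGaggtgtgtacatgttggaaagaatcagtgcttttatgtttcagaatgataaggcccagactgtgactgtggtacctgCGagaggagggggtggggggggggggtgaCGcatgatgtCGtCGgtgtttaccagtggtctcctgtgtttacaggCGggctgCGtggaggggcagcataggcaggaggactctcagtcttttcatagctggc
Each of these upstream stretches holds 8 CpG, in 250 bases.

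Kcnq1ot1 is a long RNA made from the paternal copy within an intron of Kcnq1, on the opposite strand, and it silences neighbouring genes on that copy. Its start lies in the germline region that is methylated in the egg and unmethylated in sperm. The TH2B peak there, at chr7:143295976-143296282, was 307 bp long and covered bases 267 to 573 after the start of Kcnq1ot1 (gene at chr7:143203458-143296549, minus strand), in its exon. It lay inside a CpG island of 1667 bp (chr7:143294995-143296661), as defined here from the sequence. The same peak is in an intron of Kcnq1 (chr7:143106362-143427042, plus strand), which encodes a potassium channel subunit, and its centre is 186935 bp from the nearest annotated start of Kcnq1. Kcnq1 was thus counted through the promoter of the RNA inside it and not through a promoter of its own.

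Tssc4 and Cd81, which lie at the edge of the same domain, shared a peak at chr7:143069386-143069674 (289 bp). Tssc4 encodes a factor of spliceosome assembly, and Cd81 a membrane protein of the tetraspanin family. The peak covered bases 137 to 425 after the start of Tssc4 (chr7:143069249-143071093, plus strand), in an exon, with its centre 14 bp from an annotated start. It also lay in an exon of Trpm5, a channel gene on the opposite strand (chr7:143069153-143094642) that is not among the 50. It was 1452 bp past the end of Cd81 (chr7:143052739-143067934, plus strand), whose body held no peak. Of the other members of the domain, Kcnq1ot1 and Kcnq1 had the peak described above, and Ascl2, Cdkn1c, Slc22a18, Phlda2 and Nap1l4 had none.

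Zrsr1 is a paternally expressed gene for an RNA splicing protein that lies within an intron of Commd1, a maternally expressed gene on the opposite strand for a protein of copper handling. The TH2B peak at chr11:22972504-22972727 was 224 bp long and covered bases 499 to 722 after the start of Zrsr1 (chr11:22972005-22976496, plus strand), in an exon and inside a CpG island of 1697 bp (chr11:22971772-22973468). In Commd1 (chr11:22896136-22982382, minus strand) it was 9655 to 9878 bp from the gene's 5′ end and overlapped an exon of a short transcript, whose start was 243.5 bp from the centre of the peak. The peak also lay in an intron of Gm28048, a protein-coding gene on the minus strand (chr11:22834744-22982090) that is not a member. The unit GGATAA occurred 7 times on one strand of this peak. No other of the 1140 TH2B peaks on assembled chromosomes held it as often, and 2 others held it at least 2 times. That unit was chosen after the sequence was seen. The peak resembled its own neighbourhood, with 3 further matches outside it of 70.6 to 71.9% identity, all within a stretch of 598 bp (chr11:22972302-22972899), and it had no match elsewhere in the genome in the same search.

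Dlk1 encodes a membrane protein known for holding back fat cell differentiation and is made from the paternal copy. Its peak at chr12:109452829-109453028 was 200 bp long, the shortest width in the lists. It covered bases 6 to 205 after the start of Dlk1 (chr12:109452823-109463336, plus strand), in the exon at the start of the gene and inside a CpG island of 1348 bp (chr12:109452786-109454133). No other member of the Dlk1-Dio3 domain had a peak: Meg3, Rtl1, Rian, Mirg and Dio3 were 88 to 826 kb from it.

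**Figure D1:**
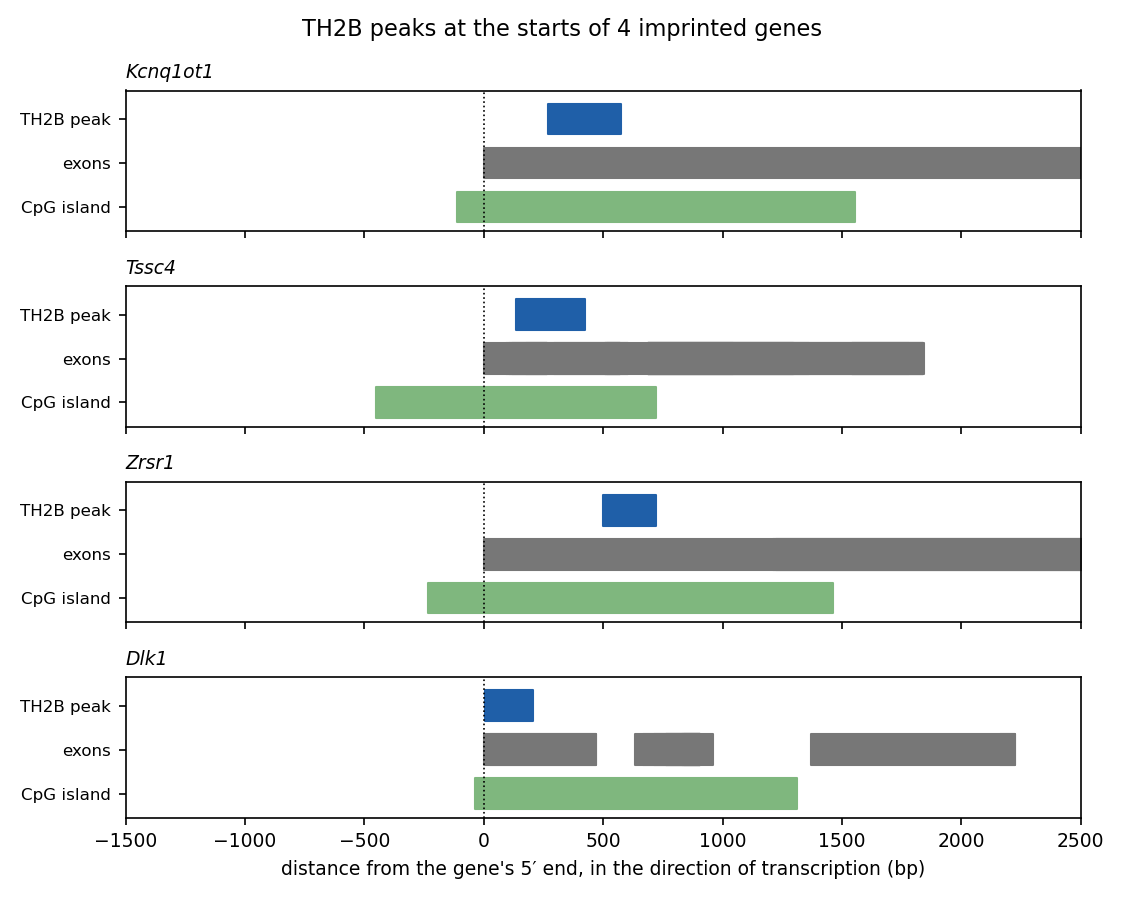
Position of the TH2B peak (blue), annotated exons of all transcripts (grey) and CpG island (green) in bp from the 5′ end of Kcnq1ot1, Tssc4, Zrsr1 and Dlk1, read in the direction of transcription, with the dotted line at the 5′ end. All 4 peaks start after the 5′ end, at 6 bp (Dlk1), 137 bp (Tssc4), 267 bp (Kcnq1ot1) and 499 bp (Zrsr1), and end inside the island.

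Start sites accounted for most of the members counted. A TH2B peak lay within 1 kb of an annotated start of 5 of the 50 imprinted genes (10%, 95% Wilson interval 4.35 to 21.4%), namely Kcnq1ot1, Tssc4, Zrsr1, Commd1 and Dlk1, against 2.3% of protein-coding genes (506 of 22028). Kcnq1 and Cd81 were counted for their bodies or flanks alone. Imprinted genes more often have a CpG island at a start, 38 of 50 (76%, 62.6 to 85.7%) against 57.7% of protein-coding genes. Among genes with such an island the shares with a peak at a start were 5 of 38 imprinted genes (13.2%, 5.75 to 27.3%) and 3.29% of protein-coding genes (418 of 12716). Without an island at a start were 12 members, namely H19, Slc22a18, Usp29, Snrpn, Ndn, Magel2, Ddc, Meg3, Rtl1, Rian, Mirg and Slc38a4. None of the 12 had a peak at a start, which allows a share of up to 25%, against 0.945% of protein-coding genes without an island.

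All 4 peaks at imprinted genes lay in CpG islands, as did 473 of the 1140 TH2B peaks on assembled chromosomes (41.5%, 38.7 to 44.4%) and 0 of 188 TH2A peaks. Their base composition varied. The ratio of observed to expected CpG was 0.96 in the Zrsr1 peak, 0.843 in the Tssc4 peak, 0.691 in the Kcnq1ot1 peak and 0.412 in the Dlk1 peak, beside a median of 0.487 over the TH2B list (quartiles 0.255 and 0.686). The Zrsr1 peak exceeded 96.9% of the list in this ratio, whereas the Dlk1 peak exceeded 40% of it. GC content was 58, 63, 55.4 and 59% in the same order, with a median of 59.8% over the list. In CpG number the peaks held 18, 24, 16 and 7. None had a near-identical copy elsewhere (a match covering 80% or more of the peak at 95% identity or more), against 24.8% of TH2B peaks (283 of 1140) and 67.6% of TH2A peaks (127 of 188).

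**Figure D2:**
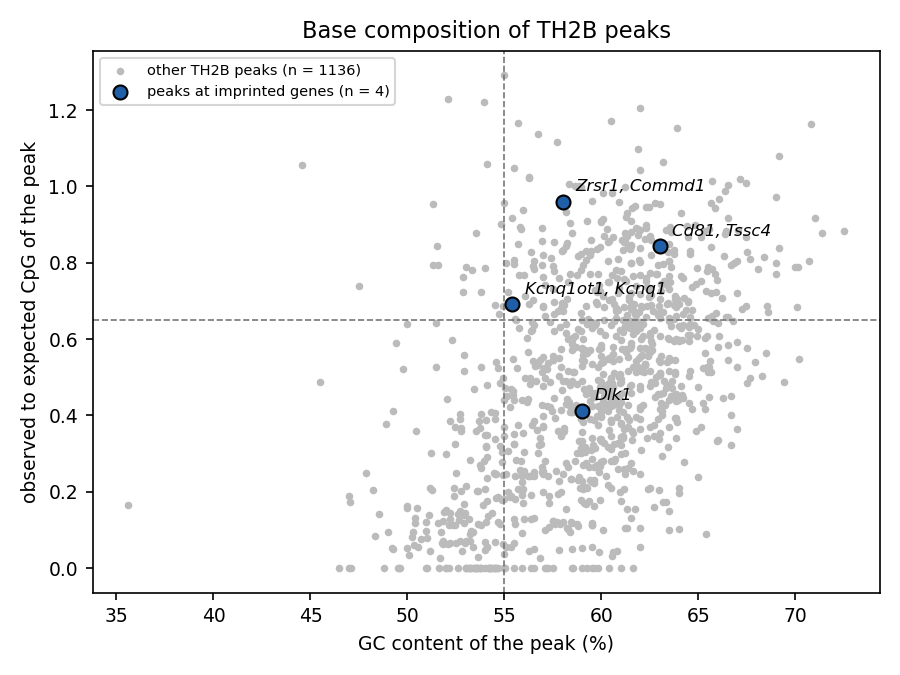
GC content (percent, horizontal) and ratio of observed to expected CpG (vertical) of each TH2B peak on an assembled chromosome, with the 4 peaks at imprinted genes in blue and the other 1136 in grey; dashed lines mark the island limits of 55% and 0.65. The Zrsr1, Tssc4 and Kcnq1ot1 peaks lie above both limits and the Dlk1 peak, at 0.412, below the limit for CpG.

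The letters TGCCGC, the core that the zinc finger protein ZFP57 binds when methylated to keep imprints in the embryo, were looked for on both strands. They occurred 1 time in the Tssc4 peak and not in the Kcnq1ot1, Zrsr1 and Dlk1 peaks, and 12.9% of TH2B peaks held them (147 of 1140). In RefSeq promoters (250 bases before to 50 after a start) 11.6% of 32817 windows held them. For the imprinted genes, 38 of which matched a RefSeq promoter, it was 13 of 54 windows (24.1%). For the members with a TH2B peak it was 1 of 7. Some windows come from the same gene and overlap, as at Mest, so the same letters can be counted more than once. The difference between 24.1 and 11.6% was not tested. A match of these letters is a description of the sequence only.

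The control regions were then taken in turn. As no coordinates of the regions were at hand, windows stood in for them. For regions methylated in the egg 18 were built from genes with a start in the region, and 3 were placed for regions methylated in sperm. The 18 took 1 kb around each start of the gene, at starts in a CpG island for 16 and at all starts for Snrpn and Slc38a4. Where a gene had several such starts all were used, 13 for Gnas and 3 each for Grb10 and Inpp5f. A window can thus also cover starts outside the region, which was not checked. TH2B peaks lay in 2 of the 18 windows for regions methylated in the egg (11.1%), those of Kcnq1ot1 and Zrsr1. Beside this, 3.29% of protein-coding genes with an island start had a peak within 1 kb of a start. Both windows belong to genes already counted above. No interval is given for this share, and with 2 windows a difference from 3.29% was not tested. The 18 windows are not all separate regions, since the limits of the Nespas window lie inside those of the Gnas window. The 16 without a peak were those of Airn, Peg3, Snrpn, Mest, Peg10, Nnat, Nespas, Gnas, Plagl1, Grb10, Impact, Inpp5f, Mcts2, Nap1l5, Slc38a4 and Peg13, where the nearest peak was 93 kb (Mcts2) to 4540 kb (Plagl1) away. None of the 3 windows for regions methylated in sperm had a TH2B peak. The nearest was 10.3 kb from the gap between Dlk1 and Meg3, which is the Dlk1 peak, 96.1 kb from the 5 kb upstream of H19 and 852 kb from the 50 kb upstream of Rasgrf1. With 3 such windows a difference from 2 of 18 was not detectable. TH2A peaks lay in none of the 21 windows.

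The other 43 imprinted genes were 72.3 to 4511 kb from the nearest TH2B peak, with a median of 667 kb. The nearest were H13 at 72.3 kb, Meg3 at 88 kb, Mcts2 at 93.1 kb, H19 at 93.5 kb and Ascl2 at 100 kb. For H19, the non-coding RNA whose upstream region controls the growth factor gene Igf2, that peak was at chr7:142481736-142482026 near Lsp1, and Igf2 was 169 kb from it. For Meg3 it was the Dlk1 peak, and for Ascl2 the Tssc4 peak. In 17 of the 20 domains no member had a TH2B peak. On chromosome 7 these were the domains of H19 and Igf2, of Peg3, Zim1 and Usp29, and of Snrpn, Ube3a, Ndn, Magel2 and Mkrn3. On other chromosomes they were the domains of Igf2r and Airn, of Mest and Copg2, of Peg10 and Sgce, of Nnat and Blcap, of Gnas and Nespas, of Grb10 and Ddc, of Mcts2 and H13, and of Peg13, Trappc9 and Kcnk9. The remaining 6 domains have 1 member each: Plagl1, Rasgrf1, Impact, Inpp5f, Nap1l5 and Slc38a4. Among the genes of these domains is Igf2r, the receptor that clears the Igf2 growth factor. Cdkn1c, an inhibitor of cell division that Kcnq1ot1 silences, had no peak either, at 162 kb from the nearest, although its domain, that of Kcnq1, held 2. A domain without a peak at a member is not always empty. The span of the Snrpn domain held 8 TH2B and 10 TH2A peaks, none within 5 kb of its 5 members. These peaks lay at Snhg14, an imprinted gene that is not a member and is described below.

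**Figure D3:**
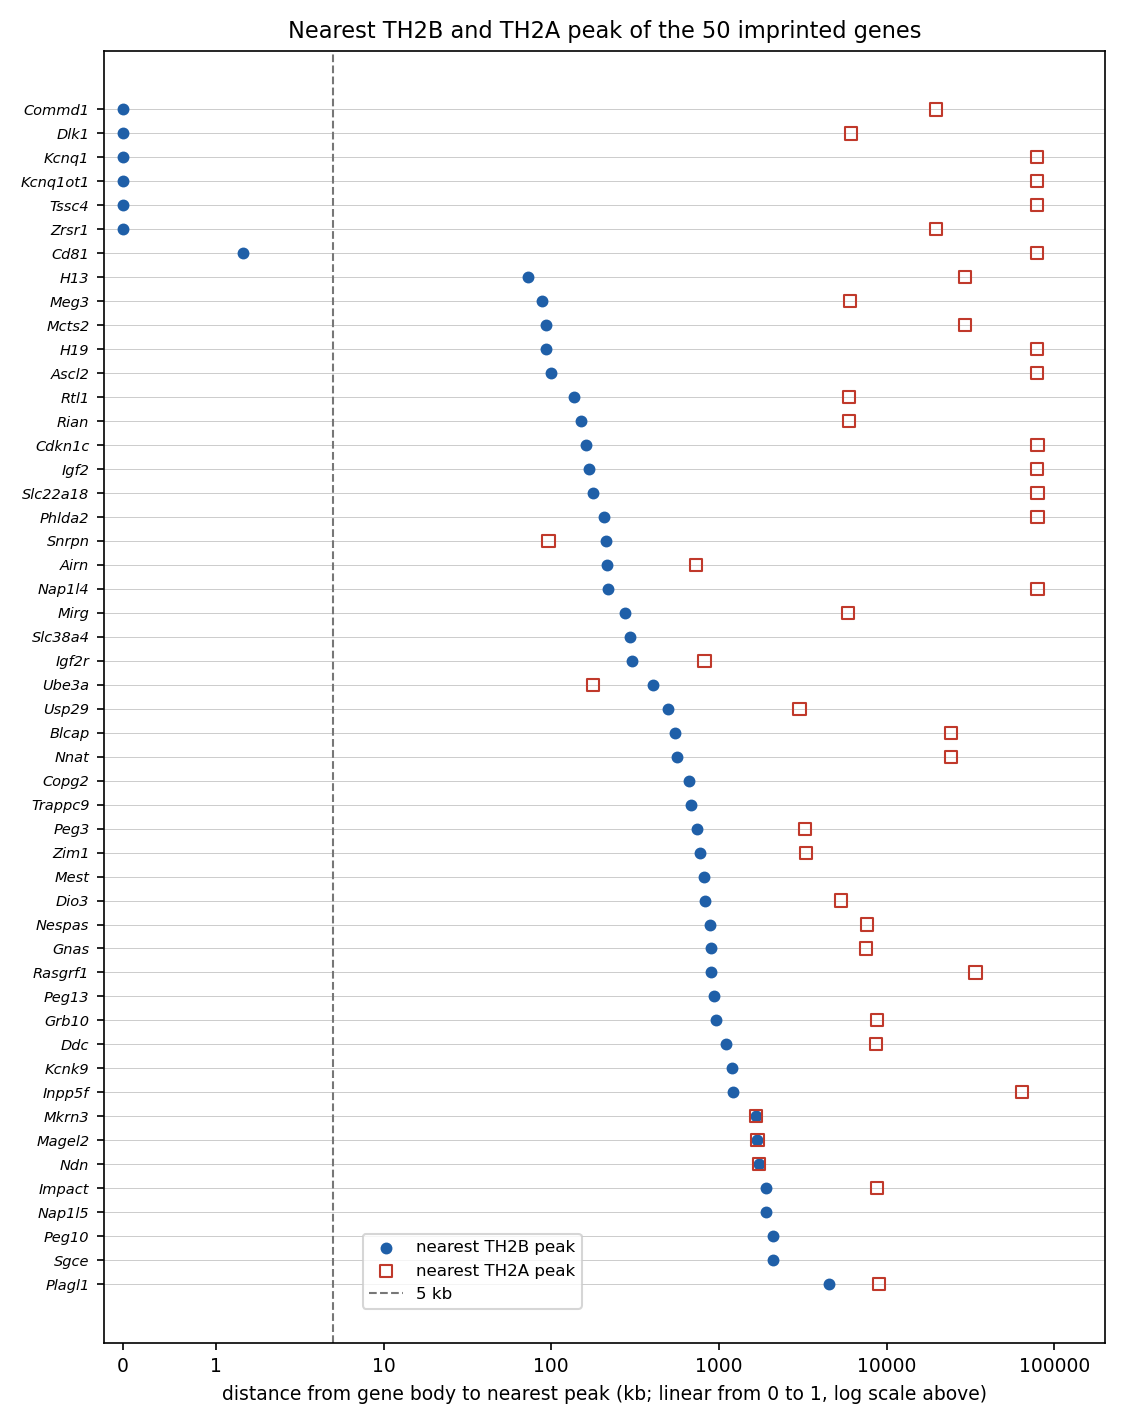
Distance in kb from each of the 50 imprinted genes to the nearest TH2B peak (filled blue circles) and the nearest TH2A peak (open red squares), in order of the TH2B distance, with 5 kb as a dashed line; the axis is linear up to 1 kb and logarithmic above, and genes without a square are on chromosomes with no TH2A peak. The 7 genes at the top lie within 5 kb of a TH2B peak, the next is at 72.3 kb, and no square lies below 96.5 kb.

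Over all 50 genes the median distance to a TH2B peak was 451 kb, against 688 kb for protein-coding genes. Within 100 kb of a peak were 11 imprinted genes (22%) and 15.8% of protein-coding genes, and over 1000 kb away were 11 imprinted genes (22%) and 41.2% of protein-coding genes. These distances are not independent values, since neighbours share their nearest peak. All 9 members of the Kcnq1 domain were measured to its 2 peaks, and all 6 of the Dlk1-Dio3 domain to the Dlk1 peak. Whether the differences from protein-coding genes remain without these domains was not tested. No further member was reached when the distance allowed was raised from 5 to 50 kb, where the share stayed at 14% (6.95 to 26.2%) and that of protein-coding genes rose to 10.7%. From 50 kb on the interval of the imprinted genes held the protein-coding share. Counting gene bodies alone removed Cd81 and left 6 of 50 (12%, 5.62 to 23.8%) against 2.89%.

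**Figure D4:**
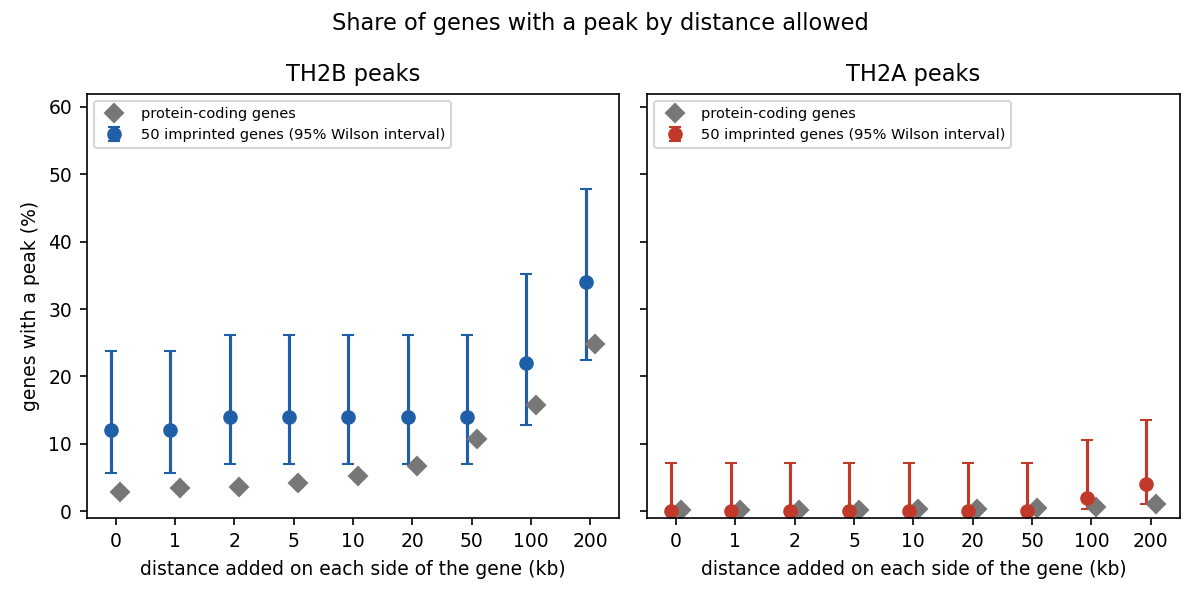
Share of genes with a peak (percent) by the distance allowed on each side of the gene (kb), for TH2B (left) and TH2A (right); circles with bars are the 50 imprinted genes with 95% Wilson intervals and grey diamonds all protein-coding genes. For TH2B the circles stay at 12 to 14% up to 50 kb while the diamonds rise from 2.89 to 10.7%, and for TH2A the circles are at 0 up to 50 kb.

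Gene length was compared as well, since a longer gene has more room for a peak. The imprinted genes had a median length of 26070 bp, against 17318 bp for protein-coding genes. Among genes under 10 kb, 2 of 14 members (Tssc4 and Zrsr1, 14.3%) had a TH2B peak, against 3.39% of protein-coding genes. From 10 to 50 kb it was 2 of 17 (Cd81 and Dlk1, 11.8%) against 4.21%, from 50 to 100 kb 2 of 11 (Kcnq1ot1 and Commd1, 18.2%) against 4.33%, and from 100 kb on 1 of 8 (Kcnq1, 12.5%) against 6.82%. The 7 members with a peak fell in all 4 classes, but only 4 peaks stood behind them. Tssc4 and Cd81, Zrsr1 and Commd1, and Kcnq1ot1 and Kcnq1 share a peak, and each pair falls in 2 classes. The classes are therefore not independent, and whether length accounts for the difference from protein-coding genes was not tested. By the copy usually given as expressed, 3 of 27 paternally expressed genes (11.1%, 3.85 to 28.1%) and 4 of 21 maternally expressed genes (19%, 7.67 to 40%) had a peak, and the intervals overlapped. The 4.23% of all protein-coding genes lay within the paternal interval and below the maternal one. The maternal interval takes genes as independent, but Kcnq1, Cd81 and Tssc4 all lie in the Kcnq1 domain. Cd81 and Tssc4 also share a peak. The split is loose, since imprinting of Cd81, Tssc4 and Commd1, which are among the 4 maternally expressed genes with a peak, depends on the tissue. The peak of Kcnq1ot1 and Kcnq1 and that of Zrsr1 and Commd1 each count on both sides. Gnas and Grb10, whose expressed copy differs by transcript or tissue, had no peak. Protein-coding members reached 6 of 42 (14.3%, 6.72 to 27.8%), against 4.23% of protein-coding genes. Non-coding members reached 1 of 8 (12.5%, 2.24 to 47.1%), against 2.32% of long non-coding genes (236 of 10155), a share that lies just above the lower limit.

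TH2A peaks were few, and the distances of protein-coding genes to them are not given here for comparison. Within 100 kb of a TH2A peak was 2% of the imprinted genes (0.354 to 10.5%), against 0.681% of protein-coding genes. The 9 members on chromosomes 6 and 15 were on chromosomes with no TH2A peak, and the other 41 were 96.5 to 79433 kb from one, with a median of 8757 kb. Within 1000 kb were 4 genes, Snrpn at 96.5 kb, Ube3a at 177 kb, Airn at 730 kb and Igf2r at 820 kb. Snrpn encodes a splicing protein and Ube3a a ubiquitin ligase, and the peaks nearest to them lay in Snhg14, the long antisense RNA that runs from one to the other and hosts repeated small nucleolar RNAs.

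Snhg14 was the only one of 36 further imprinted genes with a peak within 5 kb, with 8 TH2B and 10 TH2A peaks. The share for TH2B was thus 2.78% (0.492 to 14.2%), below the 4.23% of protein-coding genes and the 14% of the members, although its interval holds the former and overlaps that of the members. For TH2A it was the same 1 of 36, against 0.218% of protein-coding genes. All of these had a near-identical copy in the genome, unlike the 4 peaks at the members, and how reads with several possible places were treated is not given in the sources used here. Among 26 genes for factors that set or keep imprints, such as DNA methyltransferases and ZFP57, none had a TH2B or TH2A peak. This allows a share of up to 11.5%, which lies above the 4.23% (TH2B) and 0.218% (TH2A) of protein-coding genes, so a difference from them was not detectable.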

How the data were processed

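Reads were trimmed (Trimmomatic) and mapped to mm10 (BWA) by the authors, who called peaks over Input using MACS2 2.1.3 at a p-value cutoff of 0.05. The deposited lists give positions of peaks in bp, with both ends included and no measure of strength. Treatment of duplicates and of reads with several places is not given in the sources used here. Pooled reactions and 1 library per variant leave no replicate, and no test was made.

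Genes and starts came from GENCODE M21 and sequences from GRCm38.p6 and RefSeq. A peak was counted with at least 1 bp in the gene or its 5 kb flanks, or within 1 kb of an annotated start. CpG islands were merged 500 bp windows with GC of at least 55% and an observed to expected CpG of at least 0.65 (21523 in the genome). Near-identical copies were found with BLAST 2.17.0 (word size 48). Shares have 95% Wilson intervals (Python 3.11, scipy 1.17.1), and a share of 0 allows 3 counts. Functions were tested on simulated data. Sequence measures leave out peaks on unplaced sequences. All 50 members were accounted for, those with a peak in full and the 5 nearest others by distance. The members and lists were chosen with earlier results of these data known.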

Additional observations from a re-analysis of the deposited data

How the results depend on the processing

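The lists hold positions only, so no stricter score could be applied. When only peaks at least as wide as the median of their list were kept, 2 of the 4 TH2B peaks at imprinted genes were left. These were at Kcnq1ot1 and Tssc4, both in the Kcnq1 domain. The share of genes fell to 8% (3.15 to 18.8%) beside 2.2% of protein-coding genes. Tying each peak to the gene with the nearest start gave 8% (Kcnq1ot1, Tssc4, Commd1 and Dlk1) beside 2.87%. With 1 count per domain it was 15% (3 of 20, 5.24 to 36%). Only peaks at members counted here, which leaves out the 8 TH2B peaks inside the Snrpn domain. A domain can hold several genes, so this value cannot be set against the share of single protein-coding genes, and no share of like regions was computed. Leaving out a domain, an alternative chosen after seeing the data, gave 7.32% without Kcnq1, 10.4% without Zrsr1 and 13.6% without Dlk1-Dio3. The share with a TH2A peak was 0 under all 15 alternatives. With 1 start per gene 4 members had a TH2B peak at a start, and the 2 windows of control regions with a peak stayed at 2 under each of the 3 alternatives run. No paired analysis was possible because each variant has 1 library.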
